A study of Mus musculus with 27 samples.

Results

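Fibroblast growth factors (FGF) were examined here through 7 genes, taken by their symbols out of 40129 genes in the table. They are the ligand genes Fgf1, Fgf2 and Fgf9 and the receptor genes Fgfr1, Fgfr2, Fgfr3 and Fgfr4, and each of the 7 was found once and had a mean above the filter of 1 normalized read, so all 7 were tested. The study used the oxygen-induced retinopathy (OIR) model, in which wildtype C57BL/6J pups breathe 75% oxygen from day 7 to day 12 and then return to room air. Whole retinas of these mice were compared at day 14 (OIR p14, 6 mice) and day 17 (OIR p17, 8 mice) with those of pups of the same age kept in room air (nOIR p14 and nOIR p17, 6 mice each). Control mouse S4 of nOIR p14 was left out of the main comparisons, as in the study, because of lens genes in its sample. Each library came from 1 mouse, with either 1 retina or both retinas pooled, and male and female pups were used. Mice of a group shared litters, and since it was not known which mouse came from which litter, all tests took mice as independent. Around p14 the central retina is hypoxic, and around p17 new vessels grow towards the vitreous. All values are normalized reads, which are read counts divided by 1 size factor per mouse, so they compare a gene between mice but not genes of different length.

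FGF ligands bind heparan sulfate on cell surfaces and in the matrix, and together with it they pair receptor tyrosine kinases, which signal through Ras, ERK, PI3 kinase and phospholipase C. Fgf1 and Fgf2 lack a classical signal peptide and leave cells by other routes, whereas Fgf9 is secreted. In the retina, Fgf2 is known as a survival factor for photoreceptors that Müller glia and photoreceptors raise after injury, and as a growth factor for endothelial cells. Fgf9 acts in the retina during development, and Fgfr1 is widely used by neurons, glia and vessels.

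Total reads recovered per mouse ranged from 17029536 to 33593428, and every member except Fgfr2, Fgfr3 and Fgfr4 had at least 288 reads in each of the 26 mice. Fgfr2 rested on 23 to 232 reads per mouse, Fgfr3 on 5 to 65 and Fgfr4 on 16 to 108. The labelled tissue carried its markers, since the summed level of 6 rod markers lay between 854714 and 1576409 normalized reads in all 26 mice. Summed levels of 9 lens markers varied from 119 to 18829 normalized reads among nOIR p14 mice, from 145 to 6731 in OIR p14, from 299 to 10973 in nOIR p17 and from 339 to 32546 in OIR p17, and none of the 9 was called at either age.

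Among the 7 members, 3 were called at p14 and 4 at p17 (limma, Benjamini-Hochberg adjusted p under 0.05 over all 27137 genes tested). At p14, Fgf2 and Fgfr1 were higher and Fgf1 was lower in OIR. At p17 the same 3 genes were called in the same directions, and Fgf9 was lower as well. Over all genes tested, 6.09% were called at p14 and 12.5% at p17. By direction, 3.18% of all genes were higher and 2.91% lower at p14, against 7.39% higher and 5.12% lower at p17. With 7 members, chosen with earlier results of these data known, these shares are a setting for the counts and not a test. Over the members the median log2 fold change was 0.18 at p14, beside 0.02 over all genes, and at p17 it was 0.14, beside -0.02.

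**Figure D1:**
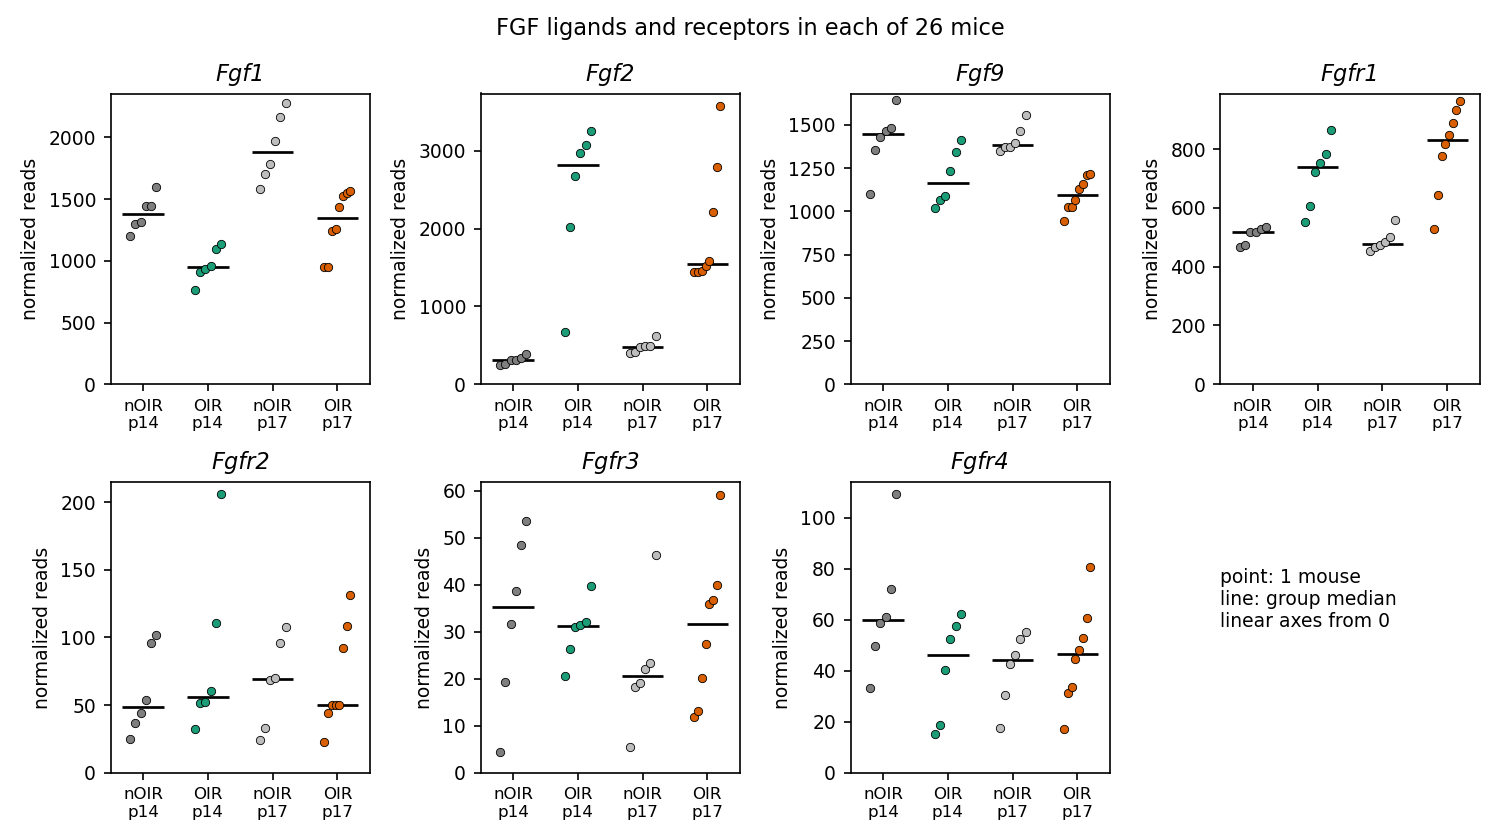
Normalized reads (vertical axes, linear, from 0) of each FGF gene in 26 mice; each point is 1 mouse, the line is the group median, and controls and OIR mice stand side by side for p14 and then for p17. Every OIR mouse lies above every control of its age for Fgf2 and below every control of its age for Fgf1, while the 4 groups overlap for Fgfr2, Fgfr3 and Fgfr4.

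Fgf2 (basic FGF) had the largest change of the 7. At nOIR p14 it ranged from 252 to 390 normalized reads with a median of 306. The 6 OIR p14 mice had 3259 (S1), 676 (S2), 2671 (S3), 3071 (S4), 2969 (S5) and 2021 (S6). All 6 were above the highest control, but mouse S2 stood well below the other 5 OIR mice, on the log2 scale past Dixon's limit for an outlier. The log2 fold change was 2.83 (SE 0.27, 95% confidence interval 2.28 to 3.39), a 7.13-fold higher level, with a limma adjusted p of 5.07e-08, and an exact permutation test of this gene alone reached 0.00216, the smallest p that 6 against 6 mice allow. Fgf2 ranked 18 of 27137 genes by p at this age, and it was the only member past the study's limits for a differentially expressed gene (an adjusted p under 0.05 with more than 2 log2 units of change), which 0.744% of all genes passed upward. The coefficient of variation of Fgf2 was 39.6% among OIR p14 mice and 16.6% among their controls. Its groups did not overlap, nor did those of Fgf1 and Fgfr1, and 3.77% of all genes had groups that did not overlap at p14.

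At p17, controls had 400 to 618 normalized reads of Fgf2 with a median of 484, and OIR mice had 1437 to 3571 with a median of 1550. All 8 OIR mice lay above all 6 controls, 5 of them between 1437 and 1580 and the other 3 at 2219, 2788 and 3571. The log2 fold change was 1.98 (SE 0.26, 95% confidence interval 1.46 to 2.51), a 3.96-fold higher level, with a limma adjusted p of 1.04e-06 and rank 418. It lay on the fold limit of the study. In this fit 0 of the 7 members passed that limit at p17, where 1.90% of all genes passed upward, but the value was 2.07 by edgeR and 2.06 by DESeq2, so the count depends on the fit.

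The effect of OIR on Fgf2 was smaller at p17 than at p14 by 0.85 on the log2 scale (difference -0.85, SE 0.37, 95% confidence interval -1.61 to -0.08), which did not pass after adjustment (limma adjusted p = 0.392, unadjusted p = 0.0307). From p14 to p17 the log2 change of Fgf2 was 0.64 in nOIR mice and -0.21 in OIR mice, and this fit called neither. The call for the difference of effects turned on a single mouse. Without OIR p14 mouse S2, the log2 fold change at p14 was 3.17, the difference between the ages was -1.19 and its adjusted p was 0.0151. The other members gave 0 calls for this difference, and Fgf2 was the 1 member of 7 with an unadjusted p under 0.05. Over all genes, 1.58% were called, and edgeR and DESeq2 called 0 of the 7 members as well.

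Mouse S2 was also the lowest of the 6 OIR p14 mice for 5 of 9 genes of a list for reactive glia, which also holds Edn2, and for none of 6 genes raised by hypoxia, where it ranked 3 to 5 from the lowest. Gfap, the intermediate filament of astrocytes and reactive Müller glia, was at 2132 normalized reads in S2 and at 4090 to 7734 in the other 5. Edn2, an endothelin raised in stressed photoreceptors, was at 133 against 255 to 783, and Stat3, a transcription factor of cytokine signalling, was at 3704 against 6411 to 8430. Vegfa, the main hypoxia-driven vessel growth factor, ranked 5 of 6 from the lowest in S2, with 7712 normalized reads in a range of 4151 to 8754. Among OIR p17 mice, S1 was the lowest for Fgf2 (1437), Gfap (2164) and Edn2 (138). These genes were compared after the Fgf2 values had been seen, and their part in the result was not tested.

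Promoter sequences of RefSeq (GRCm38.p6, 250 bases before to 50 after the start) were matched for Fgf2, Fgf9, Fgfr2, Fgfr3 and Fgfr4, and they were searched on both strands, with overlapping matches counted, for the hypoxia response cores ACGTG and GCGTG, the STAT motif TTCNNNGAA, the AP-1 motif TGANTCA and the GC box GGGCGG. No promoter of Fgf1 or Fgfr1, which were both called at p14 and at p17, was searched. The windows below are shown because Fgf2 was the member raised most and Fgf9 a member that was lower, and each has 1 hypoxia response core. Of the receptors that were not called, Fgfr4 has 3 such cores, and the 2 promoters of Fgfr3 have 5 and 1. Fgfr2 has 2 matches, which are 1 palindrome read on both strands. GC boxes numbered 1 in Fgf2, 4 and 2 in the 2 promoters of Fgfr3, 4 in Fgfr4, and 0 in Fgf9 and Fgfr2. Capitals mark the motif, and both genes lie on the plus strand.
Fgf2, chr3:37348569-37348597: tggaggcgccggGCGTGgggaggaggcgg
Fgf2, chr3:37348592-37348621: aggcggcgcgcgGGGCGGgggcgcacgggg
Fgf9, chr14:58072504-58072532: tcgccgccgccaACGTGagattttttttt

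In Fgf2 the core begins 72 bases and the GC box 49 bases before the start site, and in Fgf9 the core begins 170 bases before it. Of 32851 promoters of this length, 19.6% hold ACGTG, 32.4% GCGTG and 43.8% at least one of them, so a match is common. The GC box is in 35.7%, the STAT motif in 8.30% and the AP-1 motif in 7.81%, and no STAT or AP-1 motif was found in the promoters of these 5 members. The matches are a description of these windows and not of binding.

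Reads of Fgf2 can be confused with those of overlapping genes, since the library kit does not mark strand and reads that overlap more than 1 gene were not counted. In GENCODE M21 (GRCm38), 640 of its 6782 exon bases are shared with Nudt6 on the opposite strand and 255 with Gm43439 on the same strand. Gm43439 had at most 1.83 normalized reads in any of the 26 mice. Nudt6, a nudix hydrolase known as an antisense gene of Fgf2, ranged from 25.4 to 58.6 normalized reads in nOIR p14, 42.9 to 101 in OIR p14, 24.9 to 54.7 in nOIR p17 and 37.3 to 95.1 in OIR p17. Its log2 fold change was 0.76 at p14 (limma adjusted p = 0.102) and 0.79 at p17 (adjusted p = 0.0351), and its highest value in any mouse was below the lowest value of Fgf2.

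Of the other genes next to the members that were listed as possible sources of shared reads (Spata5, Letm2, Nsd3, Nsd1, Letm1, Tacc2, Tacc3 and Nr3c1), Tacc3 was called, higher at p17 by 0.55 (limma adjusted p = 0.000878), and none at p14. In the annotation, 314 exon bases of Fgfr2 are shared with Ctbp2, 164 of Fgfr1 with Gm16159 and 998 of Fgfr3 with G630022F23Rik, so these 3 receptors may have lost some reads. For Fgf1, Fgf9 and Fgfr4 no exon base is shared.

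Fgf2os, a transcript annotated on the strand opposite Fgf2 that shares no exon bases with it, was added after the annotation had been read. It ranged from 22.8 to 45.0 normalized reads in nOIR p14 and from 88.0 to 517 in OIR p14, and from 32.9 to 72.1 in nOIR p17 and from 190 to 656 in OIR p17. The groups did not overlap at either age. The log2 fold change was 2.87 at p14 (SE 0.33, limma adjusted p = 7.58e-07) and 3.12 at p17 (SE 0.31, adjusted p = 1.01e-08). As with Fgf2, mouse S2 had the lowest level of the OIR p14 mice. The libraries keep no strand, so reads counted for Fgf2os do not show which strand they came from.

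Fgf1 (acidic FGF) moved opposite to Fgf2. At p14 it ranged from 1205 to 1602 normalized reads in controls, with a median of 1380, and from 762 to 1134 in OIR, with a median of 946. Every OIR mouse was below every control. The log2 fold change was -0.53 (SE 0.13, 95% confidence interval -0.79 to -0.26), a level 1.44-fold lower in OIR (limma adjusted p = 0.01005). At p17 controls had 1579 to 2280, with a median of 1880, and OIR mice had 952 to 1563, with a median of 1347. Again no OIR mouse reached the lowest control, and the log2 fold change was -0.56 (SE 0.12, 95% confidence interval -0.81 to -0.31, adjusted p = 0.00127). The effect differed between the ages by -0.03 (95% confidence interval -0.39 to 0.33, adjusted p = 0.973).

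Within each mouse, Fgf2 can be set against Fgf1 without any size factor, since both counts come from 1 library. This ratio was added after the levels had been seen. Controls had 0.225 ± 0.0402 Fgf2 reads per Fgf1 read (SD, n = 6) at p14 and 0.253 ± 0.0394 (SD, n = 6) at p17. OIR mice had 2.49 ± 0.947 (SD, n = 6) at p14 and 1.62 ± 0.916 (SD, n = 8) at p17. The lowest OIR mouse, with 0.887, was above the highest control, with 0.313. On the log2 scale the ratio was higher in OIR by 3.36 at p14, which is 10.3-fold, and by 2.55 at p17, which is 5.84-fold. Since Fgf2 lay above and Fgf1 below every control of its age, the ratios had to separate, and they are given as a description with no test. In tissue, fewer cells of a type and less RNA per cell cannot be told apart, and that holds for all results here.

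**Figure D2:**
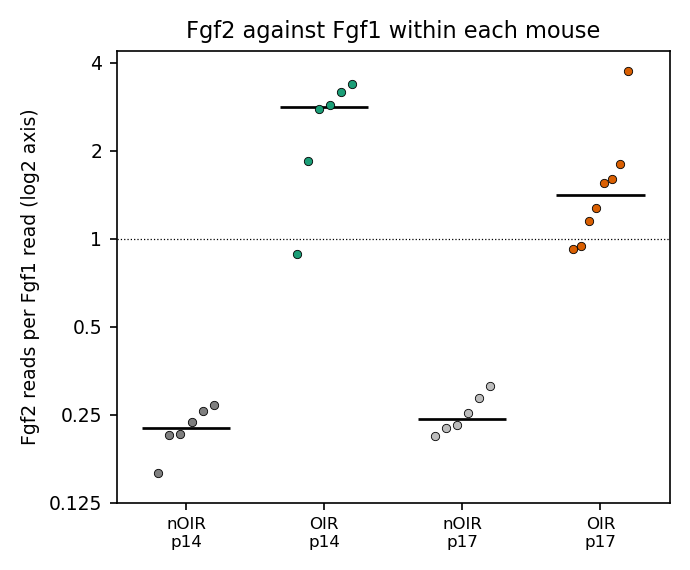
Fgf2 reads per Fgf1 read (vertical axis, log2 scale) in each of 26 mice; points are mice, lines are group medians and the dotted line marks equal reads. All controls lie at or below 0.313 and all OIR mice at or above 0.887.

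Fgf9 was lower in OIR, by less than Fgf1. At p14 controls had 1103 to 1647 normalized reads (median 1449) and OIR mice 1018 to 1412 (median 1161). The groups overlapped, and the log2 fold change of -0.24 (SE 0.10, 95% confidence interval -0.44 to -0.05) did not pass (limma adjusted p = 0.154). Without nOIR p14 mouse S1, the lowest control, it was -0.31 with an adjusted p of 0.0394. At p17 controls had 1350 to 1559 (median 1385) and OIR mice 944 to 1217 (median 1097). Here the groups did not overlap, and the log2 fold change was -0.38 (SE 0.09, 95% confidence interval -0.56 to -0.19, adjusted p = 0.00379). Fgf1, Fgf2 and Fgf9 were the 3 members whose groups did not overlap at p17, as was so for 5.87% of all genes. A difference of effect between the ages was not shown for Fgf9 (-0.13, 95% confidence interval -0.40 to 0.14, adjusted p = 0.787).

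Fgfr1, a receptor of Fgf1 and Fgf2, was the 1 receptor called. At p14 controls lay between 467 and 536 normalized reads (median 519) and OIR mice between 553 and 867 (median 739). All 6 OIR mice were above all controls, and the log2 fold change was 0.48 (SE 0.13, 95% confidence interval 0.22 to 0.74, limma adjusted p = 0.0171). Without OIR p14 mouse S4, the highest, the value was 0.42 and the adjusted p was 0.0529. At p17 controls lay between 454 and 560 (median 479) and OIR mice between 528 and 964 (median 833). Of 8 OIR mice, 7 were above every control, and mouse S4, with 528, was within their range. The log2 fold change was 0.68 (SE 0.12, 95% confidence interval 0.44 to 0.92, adjusted p = 8.40e-05). Mice of the OIR groups were more spread than controls, with a coefficient of variation of 16.2% against 5.85% at p14 and 18.6% against 7.76% at p17.

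Fgfr2, Fgfr3 and Fgfr4 were low, and no change was detectable beyond the spread between mice. Fgfr2, in its 2 splice forms the receptor of epithelial and mesenchymal cells, had medians of 48.9 and 56.3 normalized reads in nOIR p14 and OIR p14, and 69.4 and 50.2 in nOIR p17 and OIR p17. Its log2 fold changes were 0.41 at p14 (95% confidence interval -0.51 to 1.32, limma adjusted p = 0.744) and 0.04 at p17 (-0.82 to 0.90, adjusted p = 0.974). One mouse, OIR p14 S4, was at 206 while the other 5 of its group lay between 32.3 and 110.

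Fgfr3, a receptor of glia and cartilage, ranged from 4.44 to 59.1 normalized reads over the 26 mice. The log2 fold changes were 0.18 at p14 (95% confidence interval -0.80 to 1.16, limma adjusted p = 0.916) and 0.47 at p17 (-0.44 to 1.39, adjusted p = 0.601). The direction at p14 was not stable, since the arithmetic means had the other order (32.6 in controls and 30.2 in OIR) and the log2 fold change without control S1, the mouse at 4.44, was -0.28. Fgfr4 ranged from 15.1 to 109, with log2 fold changes of -0.72 at p14 (-1.49 to 0.05, adjusted p = 0.342) and 0.14 at p17 (-0.58 to 0.86, adjusted p = 0.871). These intervals hold changes of more than 1.5-fold in at least one direction, so they do not show that the 3 genes were unaltered.

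**Figure D3:**
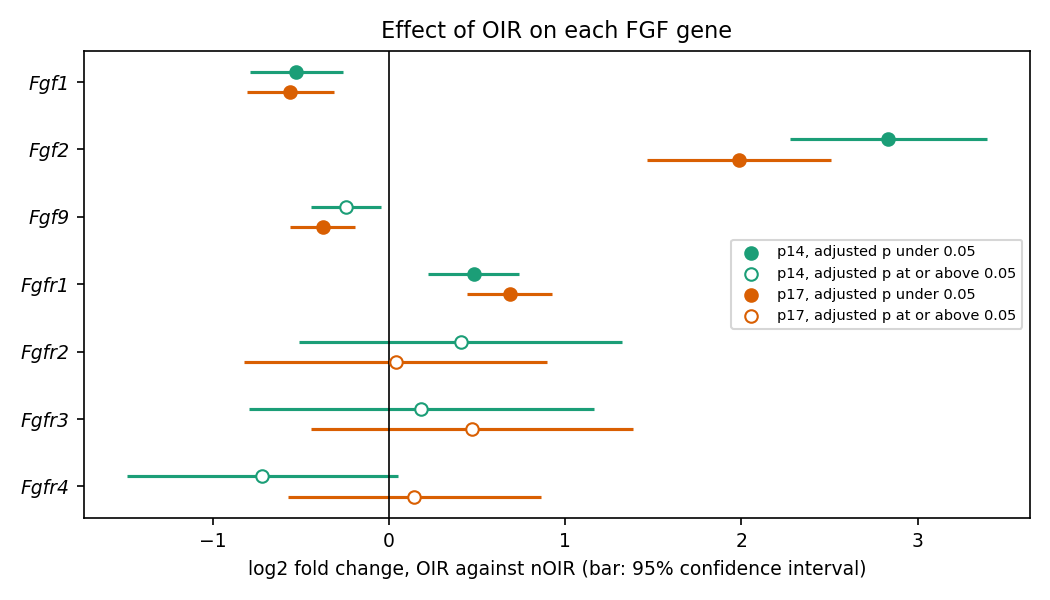
Log2 fold change of OIR against nOIR (horizontal axis) for each FGF gene at p14 and p17, with 95% confidence intervals as bars; filled points had an adjusted p under 0.05. The filled points are Fgf1, Fgf2 and Fgfr1 at both ages and Fgf9 at p17, and the intervals of Fgfr2, Fgfr3 and Fgfr4 are wide and span 0.

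To compare the genes with each other, levels were divided by the exon bases that GENCODE M21 assigns to that gene alone, which gives normalized reads per kb. In nOIR p14 mice the order by mean was Fgf9 (304), Fgf1 (253), Fgf2 (52.5) and Fgfr1 (52.2), then Fgfr4 (18.1), Fgfr2 (5.95) and Fgfr3 (5.30). In OIR p14 mice Fgf2 came first, with 415 ± 164 (SD, n = 6), above Fgf9 (257) and Fgf1 (177), although mouse S2, at 115, was below the range of both. At p17 in OIR the per-kb means of the ligands were 340 for Fgf2, 240 for Fgf1 and 236 for Fgf9, and their ranges over mice overlapped. Fgf2 and Fgfr1 did not separate in nOIR p14, with ranges of 42.8 to 66.2 and 48.1 to 55.2. Division by all exon bases instead gave 360.5 for Fgf2 in OIR p14, still the first in order, but it placed Fgf2 (45.6) below Fgfr1 (51.3) in nOIR p14. The annotation is of an older release than the one the authors counted on, so these lengths are approximate, and the libraries amplify full-length polyadenylated RNA.

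Of the summed per-kb level of the 4 receptors, Fgfr1 made up 64.4% ± 5.71 (SD, n = 6) in nOIR p14, 74.5% ± 6.64 (SD, n = 6) in OIR p14, 70.0% ± 4.51 (SD, n = 6) in nOIR p17 and 77.2% ± 5.70 (SD, n = 8) in OIR p17. Fgfr4 came next, with means of 21.8%, 12.3%, 16.1% and 12.1% in the same order of groups. The ranges of all 4 groups overlapped for both receptors, and these shares were not tested.

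**Figure D4:**
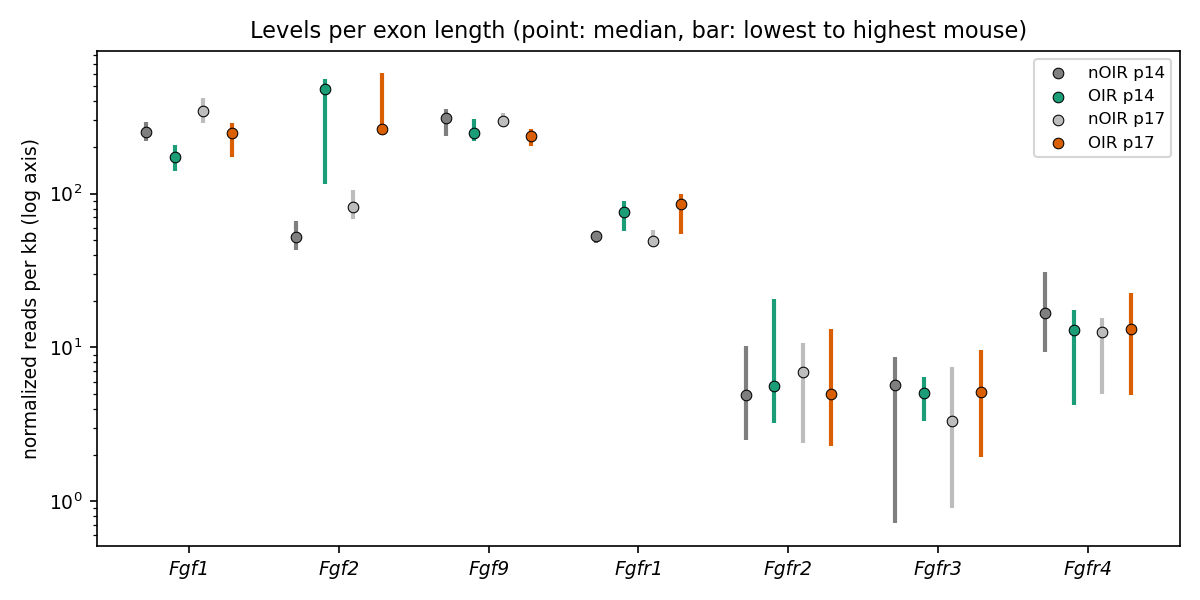
Normalized reads per kb of exon (vertical axis, log scale) of the 7 FGF genes in the 4 groups; points are group medians and bars run from the lowest to the highest mouse. The ligands Fgf1 and Fgf9 lie above every receptor in each group, Fgf2 joins them in OIR mice, and Fgfr2 and Fgfr3 are the lowest.

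The comparisons between the ages use the same mice as those above. Between p14 and p17 in nOIR mice, 0 of 7 members were called by limma and by edgeR and 1 (Fgf1) by DESeq2, beside 0.317% of all genes, and 2 had an unadjusted p under 0.05. These were Fgf1, higher at p17 by 0.46 on the log2 scale (SE 0.13, limma adjusted p = 0.155), and Fgf2, higher by 0.64 (SE 0.27, adjusted p = 0.567). All 6 nOIR p17 mice had more Fgf2 than any nOIR p14 mouse. In OIR mice, Fgf1 was the 1 member called between the ages, higher at p17 by 0.43 (SE 0.12, adjusted p = 0.0284), where 5.91% of all genes were called. Without OIR p14 mouse S2, its adjusted p was 0.0927, and the call was also lost without any one of 6 other OIR mice. Fgf2 in OIR differed between the ages by -0.21 (95% confidence interval -0.73 to 0.31, limma adjusted p = 0.729), and by -0.55 without OIR p14 mouse S2 (adjusted p = 0.0917).

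Ordered by group mean, Fgf1 ran from nOIR p17 (1915) through nOIR p14 (1384) and OIR p17 (1310) to OIR p14 (965), and each neighbouring pair of groups overlapped. Fgf2 ran from OIR p14 (2445) through OIR p17 (2002) and nOIR p17 (481) to nOIR p14 (309), with overlap of the OIR pair alone. For Fgf9 the order was nOIR p17 (1420), nOIR p14 (1414), OIR p14 (1194) and OIR p17 (1097), with overlap between all neighbours. Fgfr1 was highest in OIR p17 (800.0) and OIR p14 (715), which overlapped, and lower in nOIR p14 (507) and nOIR p17 (490), which overlapped too.

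Over the 26 mice, the genes most like each member were taken from the 19004 genes that averaged 10 or more normalized reads, by the correlation of log2 levels. The points share the group differences, so the correlation of deviations from the group means is given beside each. Fgf2 was most like Osmr, the receptor of oncostatin M (r = 0.97, within groups 0.77), Pcolce, an enhancer of procollagen cleavage (0.96, within groups 0.77), and Stat3 (0.96, within groups 0.85). Osmr rose from a median of 156 normalized reads in nOIR p14 to 915 in OIR p14, and Pcolce from 87.2 to 2716. Fgf1 was most like Sgpp2, a sphingosine-phosphate phosphatase (0.93, within groups 0.81), Hlf, a circadian transcription factor (0.88, within groups 0.51), and Tppp, a tubulin-binding protein (0.88, within groups 0.62). Fgf9 was most like Rims1, a protein of the presynaptic active zone (0.85, within groups 0.61), B230217C12Rik (0.85, within groups 0.67) and the neuronal RNA-binding protein gene Elavl4 (0.84, within groups 0.66).

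Fgfr1 was most like Cdc42ep1, an effector of the GTPase Cdc42 (0.89, within groups 0.82), Olfm2 (0.88, within groups 0.50) and Igfbp5, an IGF-binding protein (0.88, within groups 0.55). Over all 26 mice the best values were lower for the rare receptors, but not all were lower within groups. Fgfr2 was most like Ext2 (0.69, within groups 0.75), Fads1 (0.68, within groups 0.84) and Prpf6 (0.66, within groups 0.70). Fgfr3 was most like Gm44751 (0.60, within groups 0.62) and Vwa5b1 (0.59, within groups 0.56), and Fgfr4 was most like Pabpc4l (0.65, within groups 0.62), Prpsap1 (0.65, within groups 0.60) and Csgalnact1 (0.60, within groups 0.53). Among the members themselves, Fgf2 and Fgfr1 had an r of 0.81 and 0.36 within groups, and Fgf9 and Fgfr1 had -0.85 and -0.61 within groups. Fgf1 and Fgf2 had -0.51 over all mice and 0.18 within groups. The correlations are descriptive and carry no test.

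The other genes of the pathway were read from fixed lists of 115 further genes, of which 107 were tested. At p14, 12 of them (11.2%) were higher and 8 (7.48%) lower in OIR, and at p17, 20 (18.7%) were higher and 14 (13.1%) lower, beside the shares over all genes given above. The median of their log2 fold changes came to -0.03 at p14, and to -0.09 at p17. The calls were kept under every alternative setting and with each mouse left out for 13 of the 20 genes at p14 and for 24 of the 34 at p17.

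Of 18 secreted ligands, 11 were tested, the 3 members included, and Fgf10 was the only further one called. Fgf10, a ligand of Fgfr2 made by mesenchyme, had log2 fold changes of -1.22 at p14 (limma adjusted p = 0.00935) and -1.01 at p17 (adjusted p = 0.0119), with 57.6 to 172 normalized reads in nOIR p14 and 36.4 to 74.1 in OIR p14. The FGF homologous factors, which stay in the cell and bind sodium channels, split. Fgf11 was higher by 0.54 at p14 (adjusted p = 0.00246) and 0.71 at p17 (adjusted p = 1.27e-05). Fgf13 had log2 fold changes of -0.68 (adjusted p = 2.71e-06) and -0.73 (adjusted p = 7.15e-08), with 2083 to 2737 normalized reads in nOIR p14 and 1350 to 1666 in OIR p14. Fgf12 was lower at both ages (-0.43 and -0.58), and Fgf14 at p17 (-0.57, adjusted p = 0.00437). None of the further receptors and co-receptors Fgfrl1, Kl and Klb was called.

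Of 11 FGF-binding and release proteins, 2 were higher and 1 lower at p14, and 5 were higher and 3 lower at p17. Plat, tissue plasminogen activator, was at 634 to 846 normalized reads in nOIR p14 and 1146 to 2202 in OIR p14, and at 596 to 801 in nOIR p17 and 1750 to 2774 in OIR p17. Its log2 fold changes were 1.28 (limma adjusted p = 1.60e-07) and 1.83 (adjusted p = 7.57e-12). S100a13, which takes part in the release of Fgf1, was higher by 1.14 (adjusted p = 0.0161, and 0.0507 without nOIR p14 mouse S2) and 1.33 (adjusted p = 0.000906). Mmp9, a gelatinase, was lower (-0.46 and -0.37, adjusted p = 0.00383 and 0.00662). At p17 Tec and Mmp2 were also higher and Fgfbp3 and Syt1 lower. Fgfbp3 lost the call in 24 of 37 settings, edgeR and DESeq2 among them, Mmp2 in 5, Syt1 in 4 and Tec in none. The number lower at p17 ranged from 1 to 3 over the settings.

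Heparan sulfate core proteins were higher or not called. At p14, 4 of 13 were higher and at p17, 5 of 13, with 0 lower. Hspg2, perlecan of basement membranes, was at 151 to 232 normalized reads in nOIR p14 and 252 to 626 in OIR p14, and at 90.3 to 195 in nOIR p17 and 405 to 1050 in OIR p17. Its log2 fold change was 1.05 at p14 (limma adjusted p = 0.00760) and 2.41 at p17 (adjusted p = 5.91e-09). Col18a1, the collagen that holds endostatin, had 0.92 (adjusted p = 0.0306) and 2.01 (adjusted p = 4.34e-07), and the syndecans Sdc1 and Sdc4 had 1.20 and 0.35 at p14 and 1.48 and 0.67 at p17. The p14 calls of Col18a1, Sdc1 and Sdc4 were lost under several settings, the p17 calls under none. Gpc4, a glypican, was higher at p17 (1.29, adjusted p = 1.90e-05). Of 23 heparan sulfate enzymes, 0 were higher, 1 was lower at p14 and 3 were lower at p17, Hs3st5 at both ages (-0.50, adjusted p = 0.000884, and -0.40, adjusted p = 0.00181). The other 2 at p17, Ndst3 and Hs3st4, each lost the call in 15 settings.

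Markers of vessel cells were counted beside these matrix genes. At p17, 7 of 9 endothelial markers and 8 of 8 markers of pericytes and smooth muscle were higher in OIR, with summed pericyte markers of 3106 to 3930 normalized reads in nOIR p17 and 9978 to 15432 in OIR p17. At p14, 2 endothelial markers were higher and 1 lower, 1 pericyte marker was higher and 3 lower. Microglia and macrophage markers were higher in 1 of 7 at p14 and in 5 of 7 at p17, and markers of scleral and choroidal fibroblasts in 2 and 3 of 6. Their part in the results was not tested.

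Markers of glia and neurons moved as well, and no listed marker found in the table was at 0 in all mice. Of 10 lens markers listed, 9 were found in the table. Of 8 Müller glia markers, 0 were higher, 5 were lower at p14 and 6 at p17, and their sum was 65348 to 83576 normalized reads in nOIR p14 and 51564 to 62700 in OIR p14. Of 5 astrocyte markers, which include Gfap, 3 were higher at p14 and 4 at p17. Their sum was 1455 to 2285 in nOIR p14 and 3502 to 9910 in OIR p14. Much of that sum was Gfap, which alone was at 403 to 1174 in nOIR p14 and 2132 to 7734 in OIR p14. Gfap is also in the list for reactive glia. Of the 9 genes listed for reactive glia, Edn2 included, 7 were higher at each age, and of 6 genes raised by hypoxia, 5 were higher at each age. Neuronal markers were lower or not called. Lower were 2 of 6 rod, 1 of 6 cone, 1 of 6 bipolar, 2 of 6 amacrine, 1 of 4 horizontal and 1 of 6 ganglion cell markers at p14, and 3, 0, 6, 3, 1 and 3 at p17. None of 9 markers of the retinal pigment epithelium was called. Their part in the changes of Fgf1, Fgf2, Fgf9 and Fgfr1 was not tested, other than with the summed lens markers as a covariate, which left the 3 calls at p14 and the 4 at p17 in place.

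Of 24 adapters and first effectors, 1 was higher at p14, and 3 were higher and 2 lower at p17. Nras, a Ras GTPase, was higher by 0.59 (limma adjusted p = 0.000180) and 0.51 (adjusted p = 0.000155). Shc1 and Gab1, adapters of receptor tyrosine kinases, were higher at p17, by 0.91 (adjusted p = 3.22e-06) and 0.79 (adjusted p = 1.94e-05).

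Of 21 feedback inhibitors and target genes, 4 were higher and 3 lower at p14, and 6 were higher and 2 lower at p17. The 4 higher at p14 were the immediate early genes Fos (0.69) and Fosl1, the growth gene Myc (0.94) and the cyclin gene Ccnd1 (0.76). All 4 were higher at p17 too, with log2 fold changes of 1.75 for Fos, 2.41 for Myc and 1.35 for Ccnd1. Myc was at 47.5 to 83.0 normalized reads in nOIR p14, 94.8 to 202 in OIR p14, 15.9 to 43.6 in nOIR p17 and 114 to 344 in OIR p17. Fosl1 was at most 1.05 normalized reads in any control, and ranged from 1.14 to 18.8 in OIR p14 and from 1.56 to 23.1 in OIR p17. The p14 calls of Fos and Myc were lost under 6 settings each.

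The 3 that were lower at p14 restrain ERK signalling. They were Spred3 (-0.96, limma adjusted p = 0.000257), Spred2 (-0.62, adjusted p = 0.0197, lost in 4 settings with values up to 0.0611) and the phosphatase gene Dusp4 (-0.66, adjusted p = 0.0112). At p17 their values were -0.39, -0.17 and -0.25, and none was called. None of the 3 passed for the difference between the ages. Dusp6, another ERK phosphatase, had -0.06 at p14 (adjusted p = 0.868) and was higher at p17 by 0.51 (adjusted p = 0.000720), as was Egr1, an immediate early gene (1.45, adjusted p = 0.000287). Etv1, a transcription factor, and Flrt1, a membrane protein, were lower at p17 (-0.41 and -0.54), and Etv1 lost the call in 9 settings and Flrt1 in 1.

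**Figure D5:**
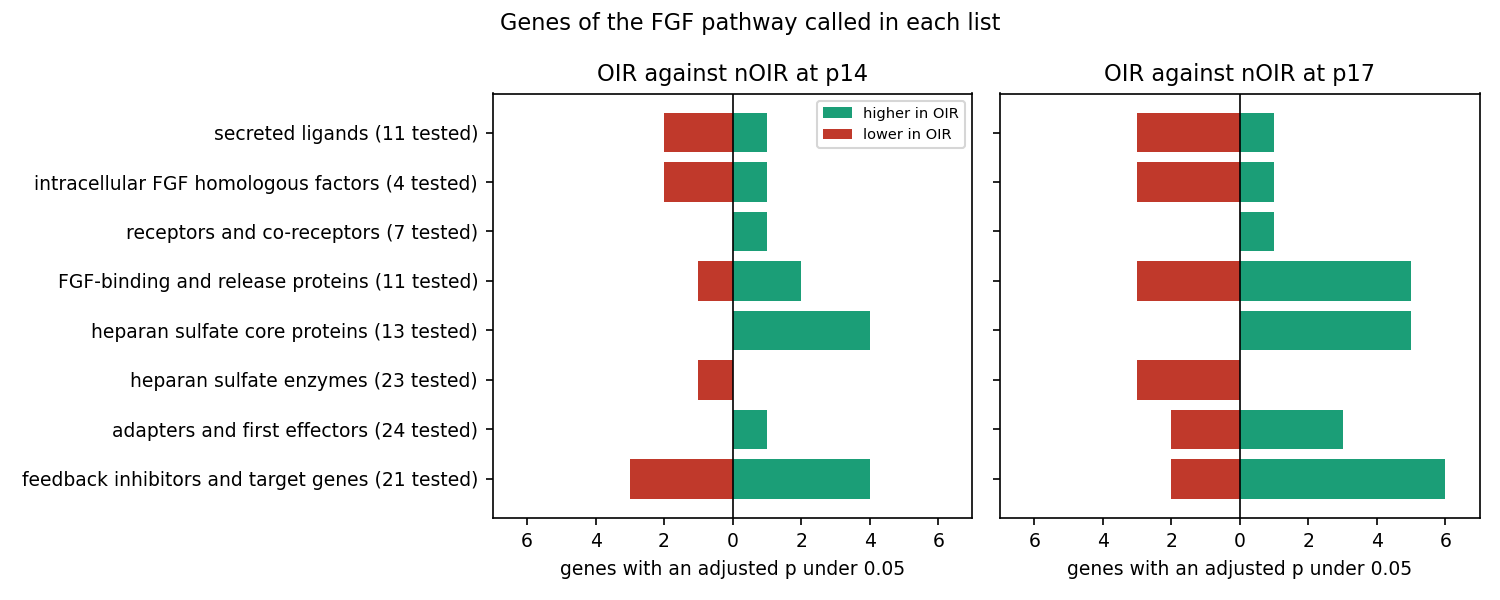
Number of genes called higher (right) or lower (left) in OIR in each list of the FGF pathway at p14 and p17 (horizontal axes, genes with an adjusted p under 0.05), with the number tested beside each list and the 7 members counted in the ligand and receptor lists. Heparan sulfate core proteins have 4 and 5 higher and 0 lower, heparan sulfate enzymes have 0 higher, and target genes have 6 higher at p17.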

How the data were processed

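RNA of whole mouse retinas was sequenced by the authors from amplified full-length cDNA (SMARTer v4, Nextera XT), which keeps no strand. Per the labels and the study's methods, the authors aligned reads with STAR 2.7.8a, counted them per Gencode gene with featureCounts 2.0.1 and deposited a signal of normalized reads, that is counts divided by 1 DESeq2 1.34 size factor per mouse. The deposited table also holds the authors' group means, log2 fold changes and adjusted p-values of their own comparisons, which were not used here.

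Log2(normalized reads + 1) of 26 mice in 4 groups was fitted with limma 3.58.1 in R 4.3.3, moderating variances by their trend with the mean, for the 27137 genes that averaged 1 or more. Adjustment followed Benjamini and Hochberg over every gene tested. The method was tested on simulated data. Single values were tested by exact two-sided permutation (scipy 1.17.1, Python 3.11.15), and p-values measure the spread between these mice. Dividing the values of each mouse by its smallest value above 0, taken as a single read, gave whole reads for 100% of the values above 0 (tolerance 0.01). On these reads, edgeR 4.0.16 called 1562 genes at p14 and 3240 at p17, and DESeq2 1.42.0 called 2086 and 3770. Other alternatives were a pseudocount of 0.1, no filter except above 0, a filter at 10, including nOIR p14 mouse S4, fitting the compared groups alone, a replicate block, equal totals, quantile normalization, a lens marker covariate, and each mouse left out in turn.

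Genes named were the 7 members, genes overlapping or next to them, up to 4 genes per pathway list and age with the smallest adjusted p among called genes whose groups did not overlap, any gene that a count of 5 or fewer refers to, and the 3 genes most like each member. A few genes that this rule covers are not reported here. Members and lists were chosen with earlier results of these data known.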

Additional observations from a re-analysis of the deposited data

Results flagged for a closer look

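In 28 combinations of 7 members and 4 groups, 0 mice passed Dixon's outlier limit on normalized reads and 1 passed it on the log2 scale that the fits use, where chance passes it in about 1 in 20 groups. That was OIR p14 mouse S2 for Fgf2, with 676 normalized reads, whose gap to the next mouse was 0.696 of the range of its group on the log2 scale and 0.521 on normalized reads, against a limit of 0.625. The effect of OIR differed between p17 and p14 for 6 of 107 pathway genes tested outside the 7 members. This was 5.61%, beside 1.58% of all genes (limma, contrast of the effects, adjusted over all genes). The difference, p17 minus p14, was 1.36 for Hspg2 (adjusted p = 0.0326), 0.74 for Shc1 (adjusted p = 0.0331), 1.00 for Spry4 (adjusted p = 0.0443), 0.57 for Dusp6 (adjusted p = 0.0489), 1.06 for Fos (adjusted p = 0.0319) and 1.47 for Myc (adjusted p = 0.0244). All 6 differences were positive, and each of the 6 calls was lost under at least 1 setting, for Myc under 3 and for Spry4 under 24 of 36. Each difference also holds the change of the controls between the ages, and Myc ranged lower in nOIR p17 than in nOIR p14. Spry4, a feedback inhibitor of receptor tyrosine kinases, had log2 fold changes of -0.48 at p14 (adjusted p = 0.164) and 0.52 at p17 (adjusted p = 0.0519).

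Control mouse S4 of nOIR p14, which is outside the comparisons, was above the 6 other nOIR p14 mice for 2 members. Fgf1 was at 1687 normalized reads in S4 and at most at 1602 in the others. Fgfr1 was at 551 in S4 and at most at 536.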

How the results depend on the processing

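Fgf1, Fgf2, Fgf9 and Fgfr1 kept direction and call against their controls in all settings run, except that Fgfr1 at p14 had an adjusted p of 0.0529 without OIR p14 mouse S4 and Fgf9 at p14 was called without nOIR p14 mouse S1 (adjusted p = 0.0394). Fgf2 ranged from 2.72 to 3.17 at p14 and from 1.85 to 2.06 at p17 over the left-out mice, on both sides of the study's limit of 2. Its difference between the ages ranged from -1.19 to -0.73, and the members called for that difference numbered 0 to 1, with 1 only without OIR p14 mouse S2. Between the ages in nOIR, 2 members were called when only the compared groups were fitted (Fgf1, adjusted p = 0.0441, and Fgf2, adjusted p = 0.0363) and 1 by DESeq2. Between the ages in OIR, 0 were called with only the compared groups, with the replicate block and with the lens covariate, and 0 to 1 over the left-out mice. The cause of these changes was not tested.

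Directions reversed only for values without a call. The Fgf1 difference between the ages was 0.0070 with mouse S4 included, 0.0040 by quantile normalization and -0.10 to 0.028 over the left-out mice. Fgf9 between the ages in nOIR was -0.029 with equal totals and -0.055 to 0.061 over the left-out mice. Fgfr2 at p17 was -0.035 with the replicate block, -0.15 by quantile normalization, -0.069 with the lens covariate and -0.21 to 0.23 over the left-out mice, and between the ages it was -0.064 to 0.39 in nOIR and -0.44 to 0.084 in OIR. Fgfr3 at p14 was -0.11 by edgeR, -0.11 by DESeq2 and -0.28 to 0.39 over the left-out mice, its difference between the ages -0.035 to 0.75, and between the ages in OIR it was 0.023 by edgeR, 0.013 by DESeq2 and -0.29 to 0.031. Fgfr4 at p17 was -0.027 by quantile normalization and -0.070 to 0.32 over the left-out mice, and between the ages in OIR -0.018 to 0.40. Fgfr3 had 5 to 65 reads per mouse and a coefficient of variation of 21.3% to 59.3% within groups, and how much of that spread is depth was not tested.

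Over all genes, 429 were called for the difference between the ages, against 690 by DESeq2 and 269 with the block, and 86 between the ages in nOIR, against 236 by DESeq2, 187 with only the compared groups and 34 to 131 over the left-out mice (34 without nOIR p14 mouse S3, 46 without nOIR p17 mouse S4 and 131 without OIR p14 mouse S1). Between the ages in OIR, 1605 genes were called, against 2095 by DESeq2, 1135 with the block and 1018 with only the compared groups. The replicate numbers showed no clear pairing of the mice. The correlation of deviations over 34 same-numbered pairs ran from -0.233 to 0.330 (median 0.0143), beside a median of -0.00325 over 218 other pairs. Of 26 mice, 7 correlated best with their own number, and the number expected without pairing was not worked out. With the replicate block, 3 members were called at p14 and 4 at p17, as without it, and genes called moved from 1652 to 1380 and from 3395 to 3159. Fitting only the compared groups gives no value for the difference between the ages.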
